A study of Mus musculus with 21 samples.

Results

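The Slit, Robo, netrin and Dcc guidance genes are the subject here. They were taken by name as 10 genes, and all 10 were found by Ensembl identifier among the 55400 genes of the deposited tables. They comprise the Slit ligands *Slit1*, *Slit2* and *Slit3*, the netrin ligand *Ntn1*, the Robo receptors *Robo1*, *Robo2* and *Robo3*, and the netrin receptors *Dcc*, *Unc5a* and *Unc5c*. Each had enough counts to be tested in every comparison.

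RNA-seq was performed on 21 libraries in 7 groups of 3 biological replicates, all from wild-type C57BL/6 mouse embryonic stem cells directed towards motor neurons of the hypaxial motor column. Retinoic acid (1 µM) and the Sonic hedgehog agonist SAG (0.5 µM) were given from day 2, and the protocol moves the cells at D5 to a basal medium for which neither is named. Untreated cultures were collected at day 4 (D4), 8 h later (D4H8), day 5 (D5) and day 6 (D6). The Notch pathway inhibitor DAPT (5 µM) was added at D4 and again at D5, so an effect of time after D4 and an effect of DAPT cannot be told apart, nor, between D5 and D6, an effect of time and one of the change of medium. Treated groups, named D4H8_GSKJ4, D5_GSKJ4 and D6_GSKJ4, received GSKJ4, an inhibitor of the H3K27 demethylases Kdm6a and Kdm6b, 1 day before collection. Its dose was not given in the sample labels. The stem cells had been grown on mitomycin-treated embryonic fibroblasts, and the cultures are mixtures of cells. A lower level in bulk RNA can mean fewer cells of a type or less RNA per cell, and these cannot be told apart.

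Slits are large secreted proteins that repel growing axons and migrating neurons through Robo receptors. In the ventral spinal cord they are made by the floor plate and also by motor neurons. *Ntn1* encodes netrin-1, a secreted cue of the floor plate and ventricular zone that attracts axons through Dcc and repels them through Unc5 receptors, alone or with Dcc. Robo3 is best known from commissural neurons, where it delays the response to Slit until the midline is crossed. *Slit2* and *Slit3* each carry in an intron a gene for the microRNA miR-218, which is abundant in motor neurons.

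Total counts per library ranged from 14982115 to 34383842 (median 16238435), and D4H8 replicate 1 was the deepest. The library of D5_GSKJ4 replicate 2 stood apart at the low end. No read was counted for 39381 genes there, where the remaining 20 libraries lacked reads for 29339 to 32805, and 790 genes had 1 to 9 counts, where elsewhere 6444 to 8520 did. In it 376 genes were at 0 that had at least 10 counts in every other library, so a 0 there cannot be read as a low level. The 10 members had 50 to 11818 counts in that library. Summed levels of 8 motor neuron markers were 22.4 to 52.9 CPM (counts scaled to a common library total) at D4, 197 to 217 at D4H8, 785 to 940 at D5 and 1449 to 1677 at D6, whereas 7 progenitor markers summed to 561 to 736 at D4, 726 to 988 at D4H8, 524 to 727 at D5 and 536 to 743 at D6. The progenitor sums of D4 and D6 thus overlapped. Motor neuron markers were thus low at D4 and D4H8 beside D5 and D6. The authors name D4 the motor neuron progenitor stage and D4H8 the proneural stage. The 7 floor plate markers summed to 125 to 173 CPM at D4 and 248 to 363 at D6, the 7 fibroblast markers to 43.4 to 143 and 92.0 to 215, and the 6 pluripotency markers to 113 to 302 and 21.99 to 152. The 16 interneuron markers summed to 13.4 to 17.9 CPM at D4 and 32.5 to 59.2 at D6. Between D4 and D6 the motor neuron, floor plate and interneuron sums separated upwards, while the fibroblast, pluripotency and progenitor sums overlapped. The floor plate sum did not rise steadily, at 184 to 286 CPM at D4H8 and 116 to 136 at D5. In replicate 1 the pluripotency sum was 113, 54.8, 50.4 and 21.99 CPM at the 4 untreated stages, the lowest at each. The part of these cells in the changes below was not tested.

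The miR-218 sequences show how the 2 host genes are joined to 1 microRNA. *Mir218-1* lies at chr5:48223942-48224051 (GRCm38, plus strand) in intron 14 of the longest coding transcript of *Slit2*, and *Mir218-2* at chr11:35616816-35616925 (plus strand) in intron 14 of that of *Slit3*. Neither lies in an exon of any annotated host transcript. In the RefSeq sequences below, written 5′ to 3′, capitals mark the seed (bases 2 to 8).
mmu-miR-218-5p: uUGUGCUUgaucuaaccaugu
mmu-miR-218-1-3p: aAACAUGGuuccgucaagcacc
mmu-miR-218-2-3p: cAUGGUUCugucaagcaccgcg
The mature 5p strand is the same from both loci, with the seed UGUGCUU, whereas the 3p strands differ in sequence and in seed. Reads on the hairpin genes cannot separate the processed microRNA from the unspliced host transcript. The poly-T purified libraries also do not measure mature microRNA.

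Upstream sequence is shown for *Slit2*, the member with the highest level at D6, for *Unc5a*, the member that differed under GSKJ4 at D4H8, and for *Robo2*, whose levels overlapped between D5 and D6. Each line holds the 200 bases before the first annotated exon (GRCm38), 5′ to 3′ on the strand of the gene, with CG dinucleotides in capitals.
*Slit2*, chr5:47982938-47983137, plus strand: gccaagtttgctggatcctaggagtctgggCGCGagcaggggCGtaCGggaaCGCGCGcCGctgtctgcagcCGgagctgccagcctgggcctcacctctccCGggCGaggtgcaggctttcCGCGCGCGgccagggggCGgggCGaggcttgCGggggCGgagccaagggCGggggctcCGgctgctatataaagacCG
*Unc5a*, chr13:54949211-54949410, plus strand: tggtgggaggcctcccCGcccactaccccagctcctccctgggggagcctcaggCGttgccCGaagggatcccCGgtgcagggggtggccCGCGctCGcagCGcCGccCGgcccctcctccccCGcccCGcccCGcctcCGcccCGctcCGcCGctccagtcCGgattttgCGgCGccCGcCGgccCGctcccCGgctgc
*Robo2*, chr16:74411826-74412025, minus strand: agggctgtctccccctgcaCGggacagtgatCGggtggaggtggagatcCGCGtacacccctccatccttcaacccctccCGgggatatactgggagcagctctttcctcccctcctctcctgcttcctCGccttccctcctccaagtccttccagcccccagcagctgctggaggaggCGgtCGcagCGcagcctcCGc
The windows hold 22, 24 and 10 CG dinucleotides, in that order, against a median of 5 over 32817 promoter windows of the same length. RefSeq also lists *Robo2* promoter windows farther upstream, at chr16:75447294-75447493 and chr16:75092771-75092970, which hold 7 and 4. RefSeq promoters matched 7 of the 10 members. The motif search used the 200 bases before each RefSeq start. These windows overlapped an annotated exon of the gene for *Slit2*, *Slit3*, *Robo3* and *Unc5c*, and that of *Robo1* lay inside the gene, at a start downstream of its first. In these windows the E-box letters CANNTG, read on both strands because they are palindromic, were present for *Robo1*, *Robo2* and *Robo3* and absent for *Slit2*, *Slit3*, *Unc5a* and *Unc5c*. They were present in 58.2% of all windows. TAATTA, a homeodomain core, was found for *Robo3* alone and in 3.74% of all windows. ATCAAT and ATCGAT were searched on both strands and found in no member window, against 5.18% and 0.585% of all windows.

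The first question was how the guidance genes changed along the untreated course from D4 to D6. From D4 to D6 all 10 members rose, where 32.9% of the 17519 tested genes were called higher and 31% lower (edgeR's quasi-likelihood test, adjusted p under 0.05). Their median log2 fold change was 2.96, against -0.04 over all tested genes. The rises ran from 2.13-fold for *Ntn1* to 98.0-fold for *Slit2*. The members were chosen with earlier results of these data known, so their shares beside those of all genes are descriptive. The steps differed: 2 members were called higher between D4 and D4H8, 7 between D4H8 and D5 and 7 between D5 and D6, and none was called lower in any step. The background shares of genes called higher were 4.06%, 17.2% and 19.2%, in that order, and of genes called lower 0.32%, 10.5% and 15.1%, and the members' median log2 fold changes were 0.83, 1.66 and 0.69. In CPM, 7 members stood above the earlier stage in every library at the first step, against 15.9% of all genes. Levels per length are given below as FPKM, in which each gene's counts are divided by its exonic length and by the counted reads.

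**Figure D1:**
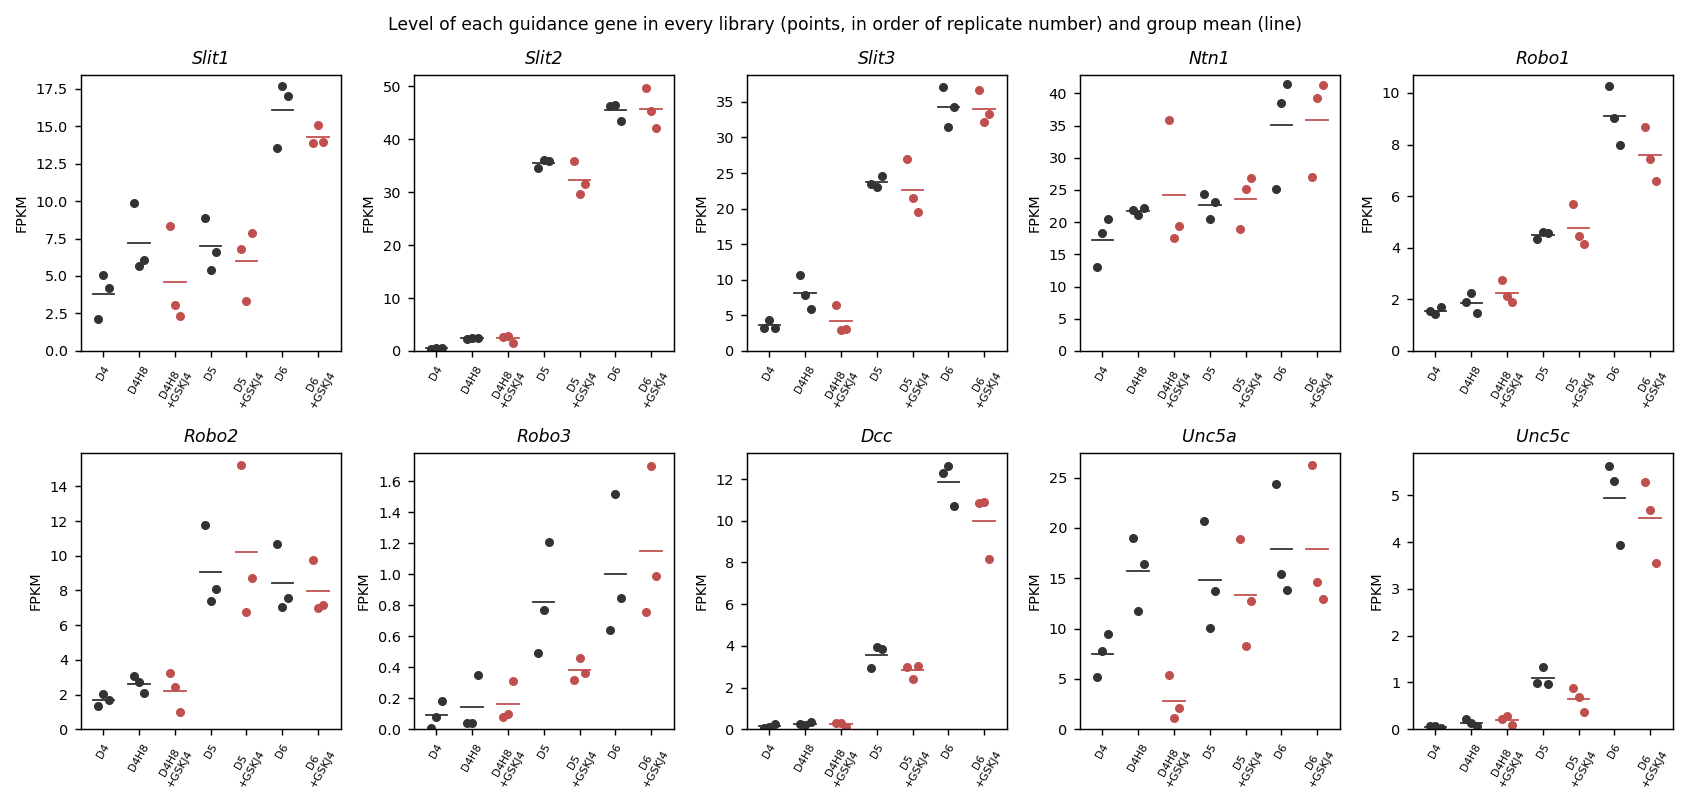
Level (FPKM, axis from 0) of each of the 10 guidance genes in each of the 21 libraries. Black points are untreated and red points GSKJ4-treated libraries, in order of replicate number from left to right within a group, and lines are group means. *Slit2*, *Dcc* and *Unc5c* sit near 0 at D4 and D4H8 and rise at D5 or D6, while *Ntn1* and *Unc5a* are expressed from D4 on. *Unc5a* is lower in all 3 treated than in all 3 untreated libraries at D4H8.

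*Slit2* was the ligand that changed most. In FPKM it was 0.36, 0.49 and 0.62 in the D4 libraries, 2.21, 2.54 and 2.43 at D4H8, 34.6, 36.0 and 35.8 at D5, and 46.4, 46.5 and 43.5 at D6. No library of one stage reached the range of another, and the main jump came between D4H8 and D5. The log2 fold changes were 2.25 (SE 0.15, edgeR adjusted p = 4.31e-06), 3.90 (SE 0.15, edgeR adjusted p = 7.79e-09) and 0.47 (SE 0.13, edgeR adjusted p = 0.015) for the 3 steps. The gene lies at chr5:47983138-48307733 (GRCm38, plus strand).

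*Slit3* (chr11:35121224-35708507, plus strand) rose more evenly. It was at 3.16, 4.42 and 3.29 FPKM at D4 and 10.7, 7.82 and 5.92 at D4H8, then at 23.4, 23.1 and 24.6 at D5 and 37.1, 31.5 and 34.3 at D6. Again no stage overlapped another, though D4H8 was spread widely. Its steps were 2.20-fold, 2.89-fold and 1.57-fold (edgeR adjusted p = 0.00391, 5.75e-05 and 0.0181). Between D5 and D6 the calls of *Slit2* and *Slit3* were both lost when D5 replicate 2, D5 replicate 3 or D6 replicate 1 was left out, with adjusted p of 0.0517 to 0.0703. Both were lost as well in one fit over all 21 libraries (edgeR adjusted p = 0.155 for *Slit2* and 0.0899 for *Slit3*).

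*Slit1* kept a different course, with the only step that edgeR called at the end. Its FPKM was 2.14, 5.09 and 4.22 at D4, 9.84, 5.65 and 6.08 at D4H8, 8.90, 5.39 and 6.62 at D5, and 13.6, 17.7 and 17.0 at D6. The D4H8 and D5 libraries overlapped almost completely, and the D6 libraries stood above all others. The change from D5 to D6 was 2.48-fold (log2 1.31, SE 0.28, edgeR adjusted p = 0.00269). From D4 to D4H8 it differed by log2 0.90 (SE 0.28, edgeR adjusted p = 0.102), although every D4H8 library was above every D4 library. DESeq2 called that first step (adjusted p = 0.0289), 1 of 2 among 19 alternative fits that did.

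*Ntn1* was the most abundant member at D4. It measured 12.98, 18.3 and 20.5 FPKM at D4, 21.8, 21.04 and 22.3 at D4H8, 24.4, 20.4 and 23.2 at D5, and 25.1, 38.6 and 41.5 at D6. Replicate 1 was lower than replicates 2 and 3 at D6, yet still above every D5 library. Only the last step was called, at 1.66-fold (log2 0.73, SE 0.16, edgeR adjusted p = 0.00342). Between D4H8 and D5 the difference was log2 0.07 (SE 0.16, edgeR adjusted p = 0.801).

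Among the receptors of Slit, *Robo1* was called higher in the last 2 steps, whereas *Robo2* was called in 1. *Robo1* was at 1.43 to 1.72 FPKM at D4 and 1.47 to 2.25 at D4H8, then at 4.32, 4.61 and 4.58 at D5 and 10.3, 9.02 and 7.99 at D6. The first 2 stages overlapped and the later ones did not. The changes were 2.40-fold into D5 (edgeR adjusted p = 5.74e-05) and 2.20-fold into D6 (edgeR adjusted p = 0.000132).

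*Robo2* (chr16:73891839-74411825, minus strand) was at 1.36, 2.02 and 1.67 FPKM at D4, 3.06, 2.73 and 2.08 at D4H8, 11.8, 7.37 and 8.11 at D5, and 10.7, 7.02 and 7.55 at D6. The D5 and D6 values were interleaved, and replicate 1 was the highest at both stages. From D4 to D4H8 it differed by log2 0.60 (SE 0.23, edgeR adjusted p = 0.198), although every D4H8 library was above every D4 library. Of 19 alternative fits, 1 called that step. *Robo2* rose 3.46-fold into D5 (log2 1.79, SE 0.23, edgeR adjusted p = 6.89e-05), and between D5 and D6 the difference was log2 0.01 (SE 0.23, edgeR adjusted p = 0.984). That last value was -0.08 with upper-quartile scaling and -0.03 in one fit over all libraries.

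*Robo3* had the lowest mean FPKM of the members at D5 and D6, with libraries that overlapped those of *Unc5c* at D5, and its counts were few. Counts per library were 2, 9 and 20 at D4, 10, 5 and 36 at D4H8, 52, 88 and 131 at D5, and 72, 166 and 91 at D6. The libraries of D4 and D4H8 overlapped, as did those of D5 and D6. The rise into D5 was 6.13-fold (log2 2.62, SE 0.74, edgeR adjusted p = 0.0172), and it was not called without D4H8 replicate 1, D4H8 replicate 2 or D5 replicate 3, with adjusted p of 0.0648 to 0.0727.

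Receptors of netrin changed in 2 ways. *Dcc* and *Unc5c* rose steeply, with both later steps called, and *Unc5a* rose less, with no single step called by edgeR. *Dcc*, the receptor for attraction, was at 0.08, 0.12 and 0.27 FPKM at D4, 0.23, 0.22 and 0.33 at D4H8, 2.95, 3.93 and 3.87 at D5, and 12.3, 12.6 and 10.7 at D6. The first 2 stages overlapped, and each later stage stood clear of the one before. It rose 13.8-fold into D5 (log2 3.79, SE 0.27, edgeR adjusted p = 4.03e-07) and 3.60-fold into D6 (edgeR adjusted p = 5.47e-05).

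*Unc5c*, a receptor for repulsion, was at 0.03 to 0.07 FPKM at D4, 0.07 to 0.21 at D4H8, 0.99, 1.34 and 0.97 at D5, and 5.63, 5.30 and 3.93 at D6. Its steepest fold was into D5, but most of its final level was gained between D5 and D6. The changes were 7.44-fold (log2 2.89, SE 0.33, edgeR adjusted p = 2.11e-05) and 4.90-fold (log2 2.29, SE 0.30, edgeR adjusted p = 7.25e-05). From D4 to D4H8 it differed by log2 1.35 (SE 0.40, edgeR adjusted p = 0.0849), with every D4H8 library above every D4 library in CPM. DESeq2 called that step (adjusted p = 0.00753).

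*Unc5a* (chr13:54949411-55006018, plus strand), the other Unc5 receptor, was expressed from the start. Its FPKM was 5.24, 7.79 and 9.46 at D4, 19.0, 11.7 and 16.5 at D4H8, 20.7, 10.1 and 13.8 at D5, and 24.3, 15.5 and 13.9 at D6. Libraries from D4H8 to D6 overlapped, and replicate 1 was the highest at each of these stages. At the first step every D4H8 library was above every D4 library, and DESeq2 called that rise (adjusted p = 0.0123). With edgeR no single step was called (log2 fold change 1.04, SE 0.30, edgeR adjusted p = 0.0696 for the first), while D6 was 2.55-fold above D4 (edgeR adjusted p = 0.00129). It shares 34 exonic bases with the hexokinase gene *Hk3* on the other strand, and *Unc5c* shares 118 with the antisense gene *Gm15688*, which had a mean of 3.62 counts. The counting strand is not given in the sources used here, so reads in these stretches cannot be assigned to one gene.

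**Figure D2:**
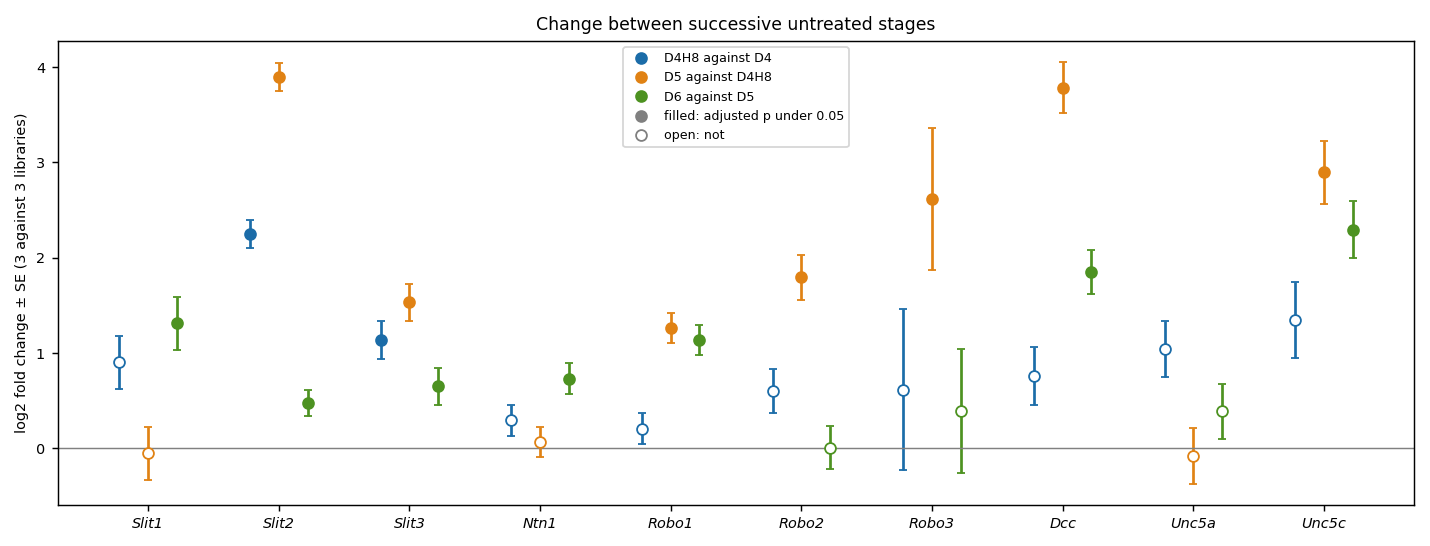
Log2 fold change (± SE, 3 against 3 libraries) of each guidance gene between successive untreated stages. Filled points passed edgeR's test at an adjusted p under 0.05, and open points did not. At the first step 2 genes are filled and at each later step 7. The longest steps are *Slit2* (3.90) and *Dcc* (3.79) into D5.

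The order of levels changed along the course. At D4 it was *Ntn1* (17.3 ± 3.86 FPKM, SD, n = 3), *Unc5a* (7.50 ± 2.13), *Slit1* (3.82 ± 1.52), *Slit3* (3.62 ± 0.693), *Robo2*, *Robo1*, *Slit2*, *Dcc*, *Robo3* and *Unc5c*. *Slit1* and *Slit3* overlapped there, as did *Robo2* and *Robo1*. The libraries of *Robo3* overlapped those of both *Dcc* and *Unc5c*, which did not overlap each other. At D6 *Slit2* led (45.4 ± 1.68), above *Ntn1* (35.1 ± 8.73) and *Slit3* (34.3 ± 2.84), which overlapped. *Unc5a* (17.9 ± 5.62) and *Slit1* (16.1 ± 2.21) overlapped as well, followed by *Dcc* (11.9 ± 1.02), *Robo1* (9.09 ± 1.14) and *Robo2* (8.42 ± 1.98), of which the last 2 overlapped. *Unc5c* (4.95 ± 0.901) and *Robo3* (1.00 ± 0.460) came last. The exonic length behind FPKM joins all annotated exons, and for *Slit2* it is 25433 bases against 9960 in the longest coding transcript. Per kilobase of that transcript, *Slit2* reached 116 at D6 and *Slit3* 39.8, and *Robo1* moved up from position 7 to position 4. A scale per gene does not alter any fold change.

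Within groups, some pairs of members varied together and others ran opposite. On log2 CPM with group means removed, 16 of the 45 pairs of members had a Pearson correlation over 0.5 (median 0.31, over the 21 libraries). The highest was 0.87 (Spearman's rho 0.74), for *Slit2* and *Dcc*, and the lowest -0.67 (rho -0.59), for *Robo3* and *Unc5c*. *Robo3* was also negative with *Robo1* (-0.58), *Slit3* (-0.58) and *Robo2* (-0.55). All pairs are read from the same libraries and share their depth, so these values are descriptive. The share of pairs over 0.5 among all genes was not computed, so the count is not shown to be particular to the members. Against the summed floor plate markers, the deviations of *Ntn1* had a correlation of 0.79 and those of *Slit1* 0.72. Those of *Slit1* had 0.70 against the motor neuron markers. *Unc5a* followed the progenitor markers (0.85) and the motor neuron markers (0.75), and ran opposite to the pluripotency markers (-0.75), as did *Robo2* (-0.67). *Unc5c* ran opposite to the fibroblast markers (-0.81), as did *Robo1* (-0.73).

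By the correlation of log2 CPM over the 21 libraries, which fall into stages, the most similar of 11371 genes were *Alcam* for *Slit2* (0.99), *Syt11* for *Slit3* (0.99), *Atp8b2* for *Slit1* (0.92) and *Tnrc18* for *Ntn1* (0.87). Among receptors they were *Syn1* for *Robo1* (0.99), *Itga4* for *Robo2* (0.97), *Mnx1* for *Robo3* (0.92), *Rxrg* for *Dcc* (0.99), *Mycl* for *Unc5a* (0.96) and *Enox1* for *Unc5c* (0.99). *Ntn1* had the least similar best match, followed by *Robo3*.

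Beyond the 10 members, 49 other genes of these pathways were examined, of which 47 were tested across stages. Between D4 and D6, 36 rose and 6 fell, where 32.9% of all tested genes were called higher and 31% lower. Their median log2 fold change was 1.23. The first step had 6 higher and 0 lower, against 4.06% and 0.32% of all genes. The second had 22 higher and 3 lower, against 17.2% and 10.5%, and the third 28 higher and 1 lower, against 19.2% and 15.1%. All 8 tested other ligands rose from D4 to D6. Of the other receptors and partners, 6 rose and 2 fell, and of the effectors, 22 rose and 4 fell. These lists were likewise chosen with earlier results of these data known, so their shares are descriptive.

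Early risers of the wider pathway were *Trim67*, *Trim9* and *Nell2*. Trim67 and Trim9 are ubiquitin ligases that bind Dcc, and Nell2 is a Robo3 ligand. At D4H8 their log2 fold changes over D4 were 2.85, 2.66 and 1.60 (edgeR adjusted p = 0.000358, 5.96e-05 and 0.000155). *Nell2* continued from 6.67 ± 1.26 FPKM at D4H8 to 65.3 ± 5.49 at D5 and 101.85 ± 7.07 at D6 (SD, n = 3). *Trim67* reached 30.4 ± 8.02 FPKM at D6 from 0.08 ± 0.04 at D4 and 0.55 ± 0.09 at D4H8. *Dscam*, a further netrin receptor, rose at both later steps (log2 2.62 and 2.89, edgeR adjusted p = 0.000371 and 4.54e-05). Its mean was low, at 0.06 FPKM at D4H8, 0.36 at D5 and 2.48 at D6. *Flrt2*, an Unc5 partner, and *Ntng1*, a membrane-anchored netrin relative, rose by 2.65 and 2.48 between D5 and D6 (edgeR adjusted p = 8.37e-06 and 7.95e-05).

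Genes that fell from D4 to D6 included *Dock1*, an activator of Rac downstream of Dcc, at log2 -1.43, *Myo10*, a myosin that carries Dcc, at -1.01, and *Dag1*, a dystroglycan that binds Slit, at -0.97 (edgeR adjusted p = 0.000282, 0.0037 and 0.000114). *Myo10*, *Flrt3* and *Dag1* were the 3 that fell between D4H8 and D5, by 0.78, 0.61 and 0.55 on the log2 scale (edgeR adjusted p = 0.0349, 0.0414 and 0.0177). Their falls were small beside the rises of *Trim67* and *Nell2*.

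The second question was what GSKJ4 did to the guidance genes at each stage. At D4H8, 1 of 10 members was called, *Unc5a*, which fell. At this stage 3.96% of the 16269 tested genes were called, with 2.11% higher and 1.85% lower. At D5 no member was called, where 1 of 16309 genes (0.00613%) was, and at D6 none, where 0% of 16301 genes was called. At D5, 2 members had an unadjusted p under 0.05, *Robo3* and *Unc5c*, both lower, against 2.39% of genes lower. Without D5_GSKJ4 replicate 2, the library that stood apart, again no member was called, where 0.00591% of 16918 genes was, and 2 members had an unadjusted p under 0.05, against 2.28% of genes lower. At D6, 0 members had one, against 0.54% of genes higher and 0.822% lower. DESeq2 called 0 members at D5 and at D6, with 0.411% and 0.00326% of genes called. The members' median log2 fold changes were -0.06, -0.18 and -0.05 at D4H8, D5 and D6, against 0.02, -0.02 and 0.00 over all genes. Without D5_GSKJ4 replicate 2 the median at D5 was -0.04 for the members and 0.01 for all genes.

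Only *Unc5a* separated the groups in CPM at D4H8, against 14.3% of genes lower and 18.5% higher without overlap. *Unc5a* was at 5.35, 1.11 and 2.08 FPKM in the treated D4H8 libraries, against 19.0, 11.7 and 16.5 in the untreated ones. Every treated library had less than every untreated one (2.85 ± 2.22 against 15.7 ± 3.69, SD, n = 3). The difference was 5.78-fold (log2 -2.53, SE 0.48, edgeR adjusted p = 0.0276). Its direction was the same without any one library, but the call was lost when any untreated library or treated replicate 3 was left out, with adjusted p of 0.0675 to 0.136.

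*Hk3*, which shares the 34 bases with *Unc5a*, had 48, 2 and 14 counts in the treated and 1145, 231 and 269 in the untreated D4H8 libraries. At D6 it had 0 to 7 counts in every library, while *Unc5a* had 901 to 1773. Treated D4H8 libraries were also below the untreated ones in the summed motor neuron (41.0 to 88.4 against 197 to 217 CPM), progenitor (229 to 426 against 726 to 988) and floor plate markers (60.5 to 136 against 184 to 286). The other sums overlapped, with higher medians in the treated libraries. They were 96.6 to 225 against 58.7 to 114 CPM for fibroblast, 129 to 309 against 54.8 to 258 for pluripotency and 14.8 to 29.3 against 14.1 to 16.5 for interneuron markers. *Isl1* and *Olig2*, a motor neuron and a progenitor factor, fell by 2.44 and 3.91 on the log2 scale (edgeR adjusted p = 0.0103 for both). The part of these markers and of *Hk3* in the *Unc5a* difference was not tested.

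At later stages *Unc5a* did not show that difference. It was at 18.9, 8.31 and 12.7 FPKM with GSKJ4 at D5 against 20.7, 10.1 and 13.8 without it, and at 26.2, 14.7 and 12.97 against 24.3, 15.5 and 13.9 at D6. The groups overlapped at both. The log2 fold changes were -0.19 (SE 0.34) and 0.00 (SE 0.34). Whether the effect differed from that at D4H8 was tested as an interaction, which gave 2.33 at D5 (SE 0.66, edgeR adjusted p = 0.19) and 2.54 at D6 (SE 0.66, edgeR adjusted p = 0.0851). No member passed that test at either stage, where 0.249% and 0.735% of genes did. At an unadjusted p under 0.05 there were 3 members at D5 and 2 at D6, where 10% and 13.7% of genes had one. DESeq2 called 1 member at each, *Unc5a* (adjusted p = 0.0302 and 0.00747), with 1.36% and 3.78% of genes called.

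Other members at D4H8 gave no call. *Slit3* was at 6.42, 2.98 and 3.03 FPKM with GSKJ4 against 10.7, 7.82 and 5.92 without it, so treated replicate 1 lay within the untreated range. The difference was log2 -1.03 (SE 0.34, edgeR adjusted p = 0.103), and DESeq2 called it (adjusted p = 0.0257), as it did 5.43% of genes as lower. *Slit1* was at 8.33, 3.08 and 2.30 against 9.84, 5.65 and 6.08 (log2 -0.71, SE 0.44, edgeR adjusted p = 0.347). *Slit2*, at 2.65, 2.92 and 1.5 against 2.21, 2.54 and 2.43, differed by log2 -0.04 (SE 0.27, edgeR adjusted p = 0.949). The other 6 members ranged from -0.26 (*Robo2*) to 0.52 (*Unc5c*), each with overlapping groups. *Ntn1* reached 35.8 FPKM in treated replicate 1 and 17.5 and 19.3 in the other two.

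**Figure D3:**
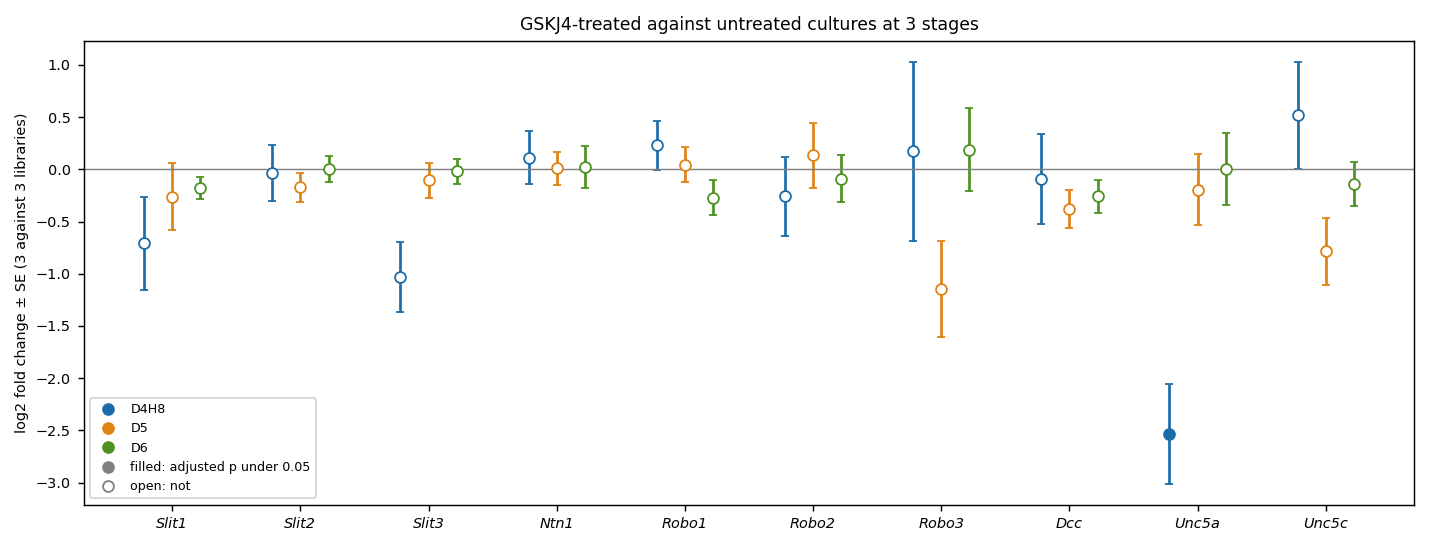
Log2 fold change (± SE, 3 against 3 libraries) of each guidance gene between GSKJ4-treated and untreated cultures at D4H8, D5 and D6. The filled point passed edgeR's test at an adjusted p under 0.05 and open points did not. *Unc5a* at D4H8 (-2.53) is the only filled point.

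At D5 the members nearest to a difference were low receptors. *Robo3* was at 0.32, 0.46 and 0.36 FPKM with GSKJ4 against 0.49, 0.77 and 1.21, and *Unc5c* at 0.88, 0.70 and 0.37 against 0.99, 1.34 and 0.97. Both were lower in every treated library, which held for 2 of 10 members and for 5.13% of all genes. Their log2 fold changes were -1.15 (SE 0.46) and -0.79 (SE 0.32), with an edgeR adjusted p of 0.976 for both. Without D5_GSKJ4 replicate 2 they were -1.30 (SE 0.41) and -0.81 (SE 0.36), with an edgeR adjusted p of 0.999 for both. The Slits, *Robo1*, *Robo2*, *Dcc*, *Ntn1* and *Unc5a* ranged from -0.38 (*Dcc*) to 0.14 (*Robo2*).

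At D6 every member's groups overlapped, whereas 2.82% of genes stood higher and 2.48% lower without overlap. *Dcc* was at 10.9, 10.9 and 8.15 FPKM with GSKJ4 against 12.3, 12.6 and 10.7, and *Robo1* at 8.69, 7.45 and 6.59 against 10.3, 9.02 and 7.99. In both, each treated library was below the untreated one of the same number. The same held for *Robo2* and *Unc5c*, while *Robo3* was higher in 3 of 3 pairs. The share of all genes that went one way in every pair was not computed. The sources used here do not state that equal numbers share a culture. The D6 libraries were taken as pairs because same-numbered treated and untreated libraries deviated together (correlations 0.32 to 0.66). Unlike numbers were positive for D6 replicate 2 with treated replicate 3 (0.19) and for replicate 3 with treated replicate 2 (0.15), and otherwise negative. With the replicate number as a block, 2 members were called lower, *Robo1* (log2 -0.27, SE 0.05, edgeR adjusted p = 0.00184) and *Dcc* (log2 -0.27, SE 0.05, edgeR adjusted p = 0.00529). That fit called 1.28% of genes lower and 0.294% higher. Without the block the same differences were -0.27 (SE 0.16) and -0.26 (SE 0.15), with an edgeR adjusted p near 1.

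The remaining 8 members differed by little at D6. With the block, their log2 fold changes ran from -0.17 (*Slit1*, SE 0.06, edgeR adjusted p = 0.223) to 0.20 (*Robo3*, SE 0.16, edgeR adjusted p = 0.73). *Slit2*, the most abundant member, was at 49.8, 45.4 and 42.2 FPKM with GSKJ4 and 46.4, 46.5 and 43.5 without it. The blocked difference was log2 0.00 (SE 0.04, edgeR adjusted p = 0.998). Marker sums moved within the D6 pairs too. The log2 ratios, treated over untreated, were -0.10, -0.17 and -0.17 for the motor neuron markers, -0.17, -0.25 and -0.42 for the floor plate markers, -0.29, -0.36 and -0.15 for the fibroblast markers and -0.19, -0.15 and -0.23 for the interneuron markers, all lower in 3 of 3 pairs. The progenitor sum was higher in 3 of 3 pairs (0.05, 0.01 and 0.09), and the pluripotency sum was lower in 2. Those of *Robo1* and *Dcc* lay between -0.18 and -0.40. The blocked fit called lower 3 of 8 motor neuron markers (*Isl2*, *Lhx4* and *Slc5a7*), 1 of 7 floor plate markers (*Spon1*) and 1 of 7 fibroblast markers (*Col3a1*). The part of these markers in the *Robo1* and *Dcc* calls was not tested.

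**Figure D4:**
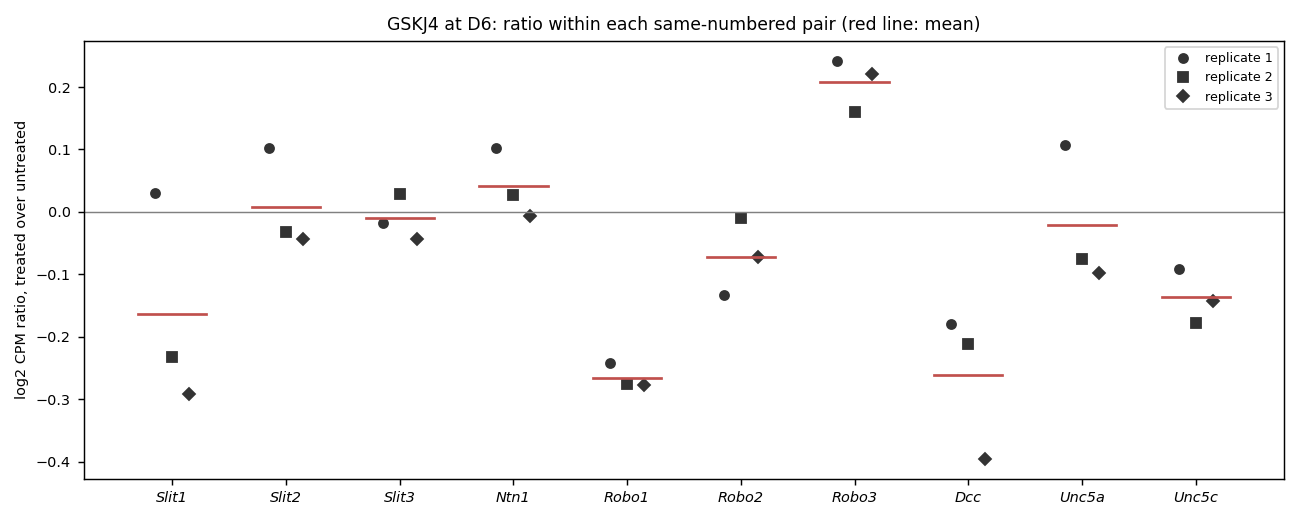
Log2 ratio of CPM, treated over untreated, within each same-numbered pair of D6 libraries for the 10 guidance genes. Marker shapes are replicate numbers, red lines are means of the 3 pairs, and 0 is no difference. *Robo1* (-0.24, -0.28 and -0.28) and *Dcc* (-0.18, -0.21 and -0.40) lie below 0 in all 3 pairs. *Robo2* and *Unc5c* also lie below 0 in all 3, and *Robo3* lies above 0 in all 3.

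Among the other pathway genes GSKJ4 at D4H8 raised 3 and lowered 2 of 47, where 2.11% of all tested genes were called higher and 1.85% lower. *Dscaml1*, a Dscam relative, *Dag1* and *Dock1* rose by 2.35, 0.91 and 0.90 on the log2 scale (edgeR adjusted p = 0.0492, 0.0397 and 0.0383). *Dscaml1* was low in both groups, at a mean of 0.60 FPKM treated and 0.12 untreated, where *Dag1* was at 79.3 and 41.2. *Trim9* and *Srgap3*, a Robo effector, fell by 2.30 and 1.36 (edgeR adjusted p = 0.0366 and 0.0347). None of the 5 was called when any one untreated D4H8 library was left out. At D5 and D6 edgeR called 0 of 47 and 0 of 48, and DESeq2 called 0 at both. At an unadjusted p under 0.05 there were 3 and 2 genes, all lower, against 2.39% and 0.822% of all genes. With the block at D6, 1 of 48 was called lower, *Flrt2* (log2 -0.76, SE 0.10, edgeR adjusted p = 0.000125), against 1.28% of all genes. In D5_GSKJ4 replicate 2, *Dscam*, *Flrt1* and *Ntng1* had 0 counts, against 109, 111 and 47 in treated replicate 1 and 58, 77 and 22 in replicate 3.

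The miR-218 genes rose with their hosts. *Mir218-2* had 2, 2 and 5 counts per library at D4, 21, 13 and 5 at D4H8, 147, 85 and 121 at D5, and 101, 183 and 170 at D6. *Mir218-1* had 0 counts in all D4 and D4H8 libraries, then 11, 7 and 7 at D5 and 12, 13 and 4 at D6. Both gained most of their counts at the step in which *Slit2* and *Slit3* rose most. *Mir218-2* rose 12.5-fold there (log2 3.64, SE 0.40, edgeR adjusted p = 1.38e-05), and *Mir218-1* rose from 0 counts (edgeR adjusted p = 0.00309).

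With GSKJ4 at D5, *Mir218-2* had 202, 254 and 283 counts against 147, 85 and 121, each treated library above each untreated one. The difference was log2 0.94 (SE 0.31, edgeR adjusted p = 0.976), while its host *Slit3* had -0.10 (SE 0.17, edgeR adjusted p = 0.976). Without D5_GSKJ4 replicate 2 the *Mir218-2* difference was 0.89 (SE 0.32, edgeR adjusted p = 0.999). *Mir218-1* had 10, 0 and 19 counts in the treated libraries, and the 0 was in replicate 2, the library with few low counts. Groups standing apart in this direction made up 6.44% of all genes.

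**Figure D5:**
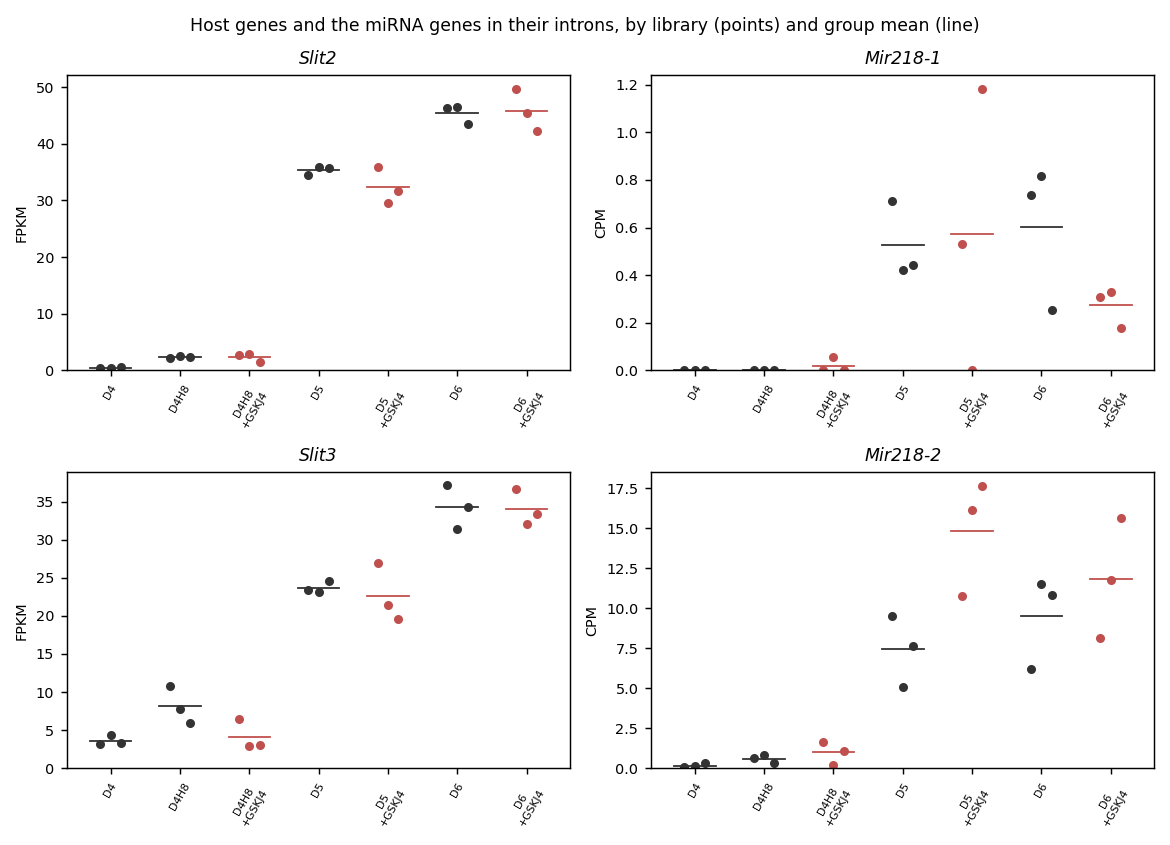
Host genes *Slit2* and *Slit3* (FPKM) beside the intronic genes *Mir218-1* and *Mir218-2* (CPM) in each library, axes from 0. Black points are untreated and red points GSKJ4-treated libraries, and lines are group means. All 4 genes are near 0 or low at D4 and D4H8 and higher at D5 and D6, and *Mir218-2* is above its untreated counterpart in all 3 treated D5 libraries.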

How the data were processed

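RNA-seq libraries were made from 7 groups of 3 biological replicates. The members and gene lists were chosen with earlier results of these data known. The authors purified mRNA with poly-T beads, trimmed reads with Fastp, used HISAT2 for alignment to the mouse genome (mm10) and HTSeq for gene-level counting, and they deposited raw counts and FPKM for 55400 genes. The counting strand is not given in the sources used here. Deposited FPKM matched values recalculated from the counts and exonic lengths within 0.005, which is rounding. No per-sample column was left unused.

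Counts were tested in R 4.3.3 with edgeR 4.0.16 (quasi-likelihood test, TMM scaling, filterByExpr at a minimum count of 10, Benjamini-Hochberg adjustment over all tested genes, adjusted p under 0.05). Stage comparisons used the 12 untreated libraries, each GSKJ4 comparison its own 6, and interactions 18. DESeq2 1.42.0, RLE and upper-quartile scaling, 2 other filters, a replicate block, one fit over 21 libraries and leaving out each library were alternatives. Levels per longest coding transcript were added after the data were seen. Scripts were tested on simulated data. SD and SE cover 3 libraries per group. Depth limits genes with few counts, such as *Robo3*.

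Equal numbers in the column names were taken to pair the libraries only where every same-numbered pair correlated over 0.1 in deviations from group means. Among the groups compared directly here, this held for D6 with D6_GSKJ4 (0.66, 0.32 and 0.45), D4H8 with D5 (0.31, 0.15 and 0.14) and D5 with D6 (0.31, 0.14 and 0.23). Other pathway genes were named by the largest changes, up to 3 raised and 3 lowered, among those called with groups that did not overlap in CPM. Similar genes were ranked by Pearson correlation of log2 CPM (prior count 2) among genes with a mean of at least 5 CPM. Positions come from GENCODE M21 on GRCm38, and miRNA and promoter sequences from RefSeq (GRCm38.p6). Promoters of *Slit1*, *Dcc* and *Ntn1* are not printed.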

Additional observations from a re-analysis of the deposited data

How the results depend on the processing

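All 10 members stayed called from D4 to D6 under every alternative. Between D5 and D6 one fit over 21 libraries called 5 members in place of 7, without *Slit2* and *Slit3*. Between D4 and D4H8 the 2 called members became 5 with DESeq2, 7 with no filter on low counts and 4 with the replicate block. For GSKJ4 at D4H8 the 1 called member became 2 with DESeq2, no filter or one fit over 21 libraries, 3 with the replicate block (*Unc5a*, *Slit3* and *Slit1*), and 0 to 2 with a library left out. With GSKJ4 at D6 the replicate block gave 2, against 0. For the GSKJ4 effect at D5 minus that at D4H8, the count of 0 became 1 with DESeq2, 2 with no filter and 1 with the replicate block, and 0 to 1 with a library left out. For D6 minus D4H8 it became 1, 2 and 2, and 0 to 2. The pathway counts moved from 6 to between 3 and 8 with a library left out between D4 and D4H8. For GSKJ4 at D4H8 they moved from 5 to 8 with DESeq2, 9 with no filter, 9 with the replicate block, 10 in one fit, and 0 to 6 with a library left out. They moved from 0 to 1 with no filter at D5, and from 0 to 1 with the replicate block at D6. The cause of these shifts was not tested. Equal numbers were not taken to pair libraries between D4 and D4H8 (correlations 0.29, 0.073 and 0.28). The same held between treated and untreated libraries at D4H8 (0.44, 0.073 and 0.26) and D5 (0.22, 0.039 and 0.21). The block changed no other member call in the comparisons tested. With upper-quartile scaling the all-gene median between D4 and D6 went from -0.04 to -0.19, and the calls from 5761 higher and 5427 lower to 5144 and 6342. Between D5 and D6 the median moved to -0.10, with 2912 higher and 3251 lower against 3369 and 2647. Depth limits *Robo3*, with at most 36 counts per library at D4 and D4H8.

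Of the members not called, these also changed sign near 0. *Robo2* between D5 and D6 was -0.078 with upper-quartile scaling and -0.031 in one fit. *Ntn1* under GSKJ4 at D5 was -0.0023 with no filter. *Slit2* under GSKJ4 at D6 was -0.00027 with DESeq2 and -0.0050 in one fit, and *Unc5a* there was 0.0022 with upper-quartile scaling. *Robo3* in the effect at D6 minus that at D4H8 was -0.0148 with RLE scaling, -0.044 with the replicate block and -0.00753 in one fit. When each library was left out in turn, no called member changed direction, and 32 differences of members that were not called changed sign in at least 1 refit. Their lowest and highest log2 fold changes follow. For D6 against D5 the ranges were *Robo2* -0.24 to 0.27 and *Robo3* -0.017 to 0.75. For D5 against D4H8 the ranges were *Slit1* -0.29 to 0.28, *Unc5a* -0.42 to 0.11 and *Ntn1* -0.0096 to 0.094. For D4H8 against D4 the ranges were *Robo3* -0.96 to 1.59. For GSKJ4 at D4H8 the ranges were *Ntn1* -0.26 to 0.27, *Slit2* -0.29 to 0.23, *Robo3* -0.60 to 1.80, *Robo2* -0.59 to 0.10 and *Dcc* -0.36 to 0.25. For GSKJ4 at D5 the ranges were *Robo1* -0.14 to 0.15, *Robo2* -0.31 to 0.39, *Ntn1* -0.079 to 0.12, *Slit1* -0.49 to 0.037, *Unc5a* -0.58 to 0.15 and *Slit3* -0.28 to 0.0037. For GSKJ4 at D6 the ranges were *Slit2* -0.092 to 0.079, *Ntn1* -0.14 to 0.17, *Unc5a* -0.42 to 0.33, *Robo3* -0.19 to 0.61, *Robo2* -0.30 to 0.16, *Slit3* -0.11 to 0.076 and *Unc5c* -0.31 to 0.019. For GSKJ4 effect at D5 minus at D4H8 the ranges were *Robo2* -0.084 to 0.72, *Ntn1* -0.31 to 0.25 and *Slit2* -0.44 to 0.11. For GSKJ4 effect at D6 minus at D4H8 the ranges were *Robo3* -1.55 to 0.74, *Ntn1* -0.27 to 0.29, *Dcc* -0.54 to 0.094, *Slit2* -0.24 to 0.30 and *Robo2* -0.20 to 0.51.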
